A study of Mus musculus with 3 samples.

Results

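The 7 genes described here encode proteins that sit on the cell surface and handle adhesion, shedding or cytokine binding: the syndecans Sdc1, Sdc3 and Sdc4, podoplanin (Pdpn), the hyaluronan receptor Cd44, the membrane metalloprotease Adam8 and the interleukin-7 receptor α chain (Il7r). They were taken by symbol, 7 of the 53802 genes in the matrices. They were chosen by their level in the knockout against the control libraries, so those values are a description and carry no test.

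Ly6Chi monocytes had been sorted from mouse livers 24 h after an overdose of acetaminophen, and single cells were captured in droplets for 3′ RNA sequencing with unique molecular identifiers (UMIs). There was 1 knockout library, numbered 4, from LysMDCommd10 mice on C57BL/6, in which a Cre driven from the lysozyme M gene deletes Commd10 in myeloid cells. There were 2 control libraries, numbered 1 and 3, from Commd10fl/fl C57BL/6 mice, whose floxed gene is left intact. All mice were males of 8 weeks that were fasted for 12 h, injected with 300 mg/kg acetaminophen and given chow again after 2 h, so no library came from an uninjured liver. Lysozyme M is also active in neutrophils and resident macrophages, so the deletion is not limited to the sorted cells. The labels do not give the number of mice per library, so p-values measure only how the libraries differ among themselves, and that spread may be technical.

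Syndecans are transmembrane proteins whose heparan sulfate chains hold growth factors, chemokines and matrix proteins at the cell surface, and their ectodomains can be shed by proteases. Podoplanin is a mucin-like glycoprotein that engages the platelet receptor CLEC-2, CD44 binds hyaluronan in the matrix, and ADAM8 is a leukocyte metalloprotease that cleaves adhesion molecules and receptors. Monocytes that enter an injured liver use such molecules to bind matrix and vessel wall while they turn into macrophages. The interleukin-7 receptor α chain serves interleukin-7 and, paired with another chain, thymic stromal lymphopoietin, and is best known from lymphocytes.

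Sums were made over monocyte-macrophage cells, 4434 in knockout 4, 4084 in control 1 and 7413 in control 3, out of 4457, 4115 and 7449 cells that passed the quality filter. Median UMIs per passing cell were 6865 in knockout 4, 8770 in control 1 and 8160 in control 3, so the knockout cells were the shallowest. Between 2 and 19 cell barcodes were shared between any pair of libraries. Commd10 itself stood at 8.62 UMIs per 1e6 UMIs of the library, scaled by edgeR's TMM factors (CPM) in knockout 4, against 17.2 and 10.3 CPM in controls 1 and 3 (log2 fold change −0.67 ± 0.32 SE, edgeR adjusted p = 0.633), but the tags come from transcript ends, which the deletion may leave in place, so this is no check of the deletion. Control 1 also stood apart from control 3, with Vcan at 149 against 385 CPM and 8.23% against 2.62% Arg1-high cells.

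Promoter sequences are shown for 4 genes because the knockout level of each was above both controls and because the letters ACGTG or GCGTG, the core to which hypoxia-inducible factors bind, occur in them. Each runs 5′ to 3′ in the direction of the gene, from 250 bases before to 50 bases after the start in the RefSeq annotation of GRCm38.p6, in which all 7 genes were matched. Capitals mark ACGTG or GCGTG on either strand.
Sdc1 (chr12:8771146-8771445, plus strand): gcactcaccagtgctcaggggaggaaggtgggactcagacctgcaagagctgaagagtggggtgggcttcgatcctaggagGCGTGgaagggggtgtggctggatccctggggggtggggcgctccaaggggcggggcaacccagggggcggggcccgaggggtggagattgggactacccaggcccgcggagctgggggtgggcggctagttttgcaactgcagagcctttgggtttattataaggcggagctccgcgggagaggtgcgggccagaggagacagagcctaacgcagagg
Sdc4 (chr2:164443139-164443438, minus strand): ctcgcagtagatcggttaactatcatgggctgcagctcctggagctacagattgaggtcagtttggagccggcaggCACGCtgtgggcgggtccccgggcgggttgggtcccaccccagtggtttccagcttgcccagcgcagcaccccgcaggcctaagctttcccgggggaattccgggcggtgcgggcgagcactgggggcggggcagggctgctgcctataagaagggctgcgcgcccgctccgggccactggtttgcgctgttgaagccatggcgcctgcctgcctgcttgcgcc
Pdpn (chr4:143299515-143299814, minus strand): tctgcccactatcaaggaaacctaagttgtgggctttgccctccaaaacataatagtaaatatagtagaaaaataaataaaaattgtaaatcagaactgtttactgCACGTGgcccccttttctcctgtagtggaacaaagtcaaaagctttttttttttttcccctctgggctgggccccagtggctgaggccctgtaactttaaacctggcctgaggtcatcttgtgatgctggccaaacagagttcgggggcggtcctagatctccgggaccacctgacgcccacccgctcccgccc
Cd44 (chr2:102901616-102901915, minus strand): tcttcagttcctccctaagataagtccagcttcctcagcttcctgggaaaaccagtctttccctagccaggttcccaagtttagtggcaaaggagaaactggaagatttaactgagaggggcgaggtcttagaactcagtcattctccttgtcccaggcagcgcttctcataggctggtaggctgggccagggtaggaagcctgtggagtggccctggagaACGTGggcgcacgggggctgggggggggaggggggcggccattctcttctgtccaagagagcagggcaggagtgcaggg

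Sdc1 and Sdc4 each held 1 GCGTG, that of Sdc4 on the opposite strand, at −169 and −174 from the start. Cd44 held 1 ACGTG close to the start. Pdpn held a palindrome that counts as 2 overlapping ACGTG matches, 1 on each strand. Sdc3 held 2 GCGTG, while the windows of Adam8 and Il7r held neither motif. Of all 32851 promoter windows of this length, 19.6% held ACGTG and 32.4% held GCGTG on either strand. Among the 7 genes, Pdpn and Cd44 held ACGTG, and Sdc1, Sdc3 and Sdc4 held GCGTG. Together 5 of the 7 held at least 1 motif, but the share of all windows with at least 1 was not computed, so that count has no background. The AP-1 motif TGANTCA was in none of the 7 windows and in 7.81% of all windows. The GC box GGGCGG was in 6 of the 7 windows, all but that of Il7r, and in 35.7% of all windows. These are matches of letters, not measured binding.

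**Figure D1:**
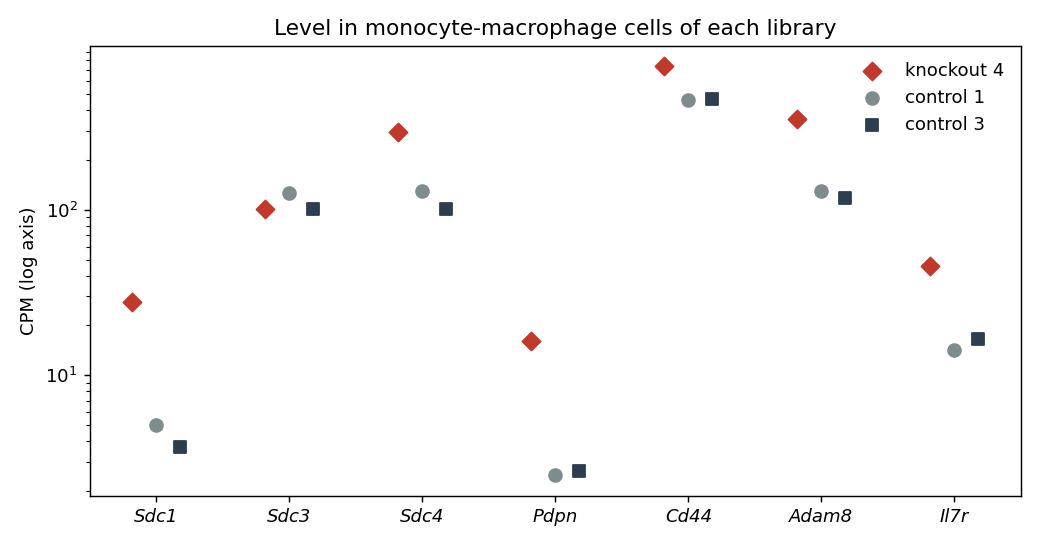
Level of each gene in the monocyte-macrophage sums (CPM, log axis) with 1 point per library, the knockout to the left of the controls. The knockout point lies above both control points for Sdc1, Sdc4, Pdpn, Cd44, Adam8 and Il7r, and just under both for Sdc3.

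In the monocyte-macrophage sums, 6 of the 7 genes stood higher in knockout 4 than in both controls, and Sdc3 did not. Of all 14802 genes tested, 36.2% stood above both controls. edgeR called 4 of the 7 higher (Sdc1, Pdpn, Adam8 and Il7r) where 0.162% of all genes were called higher, and none lower, where 0.00676% were; nothing is read from this, since the list was drawn from the same contrast. The fit had 1 residual degree of freedom and assumed that the lone knockout library varies as the controls do.

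Sdc1, the syndecan of epithelia and plasma cells, had 27.6 CPM in knockout 4, against 5.00 CPM in control 1 and 3.66 CPM in control 3, from 800, 201 and 264 UMIs. The knockout value lay far above both controls, at a log2 fold change of 2.68 ± 0.22 (SE). Sdc4, a syndecan found at focal adhesions, had 294 CPM in knockout 4, against 129 and 101 CPM in controls 1 and 3, a log2 fold change of 1.35 ± 0.18 that edgeR did not call and DESeq2 did. The third, Sdc3, best known from nervous tissue, had 101.0 CPM in knockout 4, against 126 CPM in control 1 and 101.4 CPM in control 3, at a log2 fold change of −0.17 ± 0.18. The knockout level of Sdc3 was thus practically that of control 3, and the controls differed from each other by more.

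Pdpn had 16.1 CPM in knockout 4, against 2.49 CPM in control 1 and 2.65 CPM in control 3, from 468, 100 and 191 UMIs. Its log2 fold change of 2.65 ± 0.21 was close to that of Sdc1. Cd44 had 736 CPM in knockout 4, against 461 and 467 CPM in controls 1 and 3, a log2 fold change of 0.67 ± 0.15 that was not called. The 2 Cd44 control values lay within 0.02 log2 units of each other, and the knockout value stood above both.

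Adam8 had 353 CPM in knockout 4, against 131 CPM in control 1 and 117 CPM in control 3, a log2 fold change of 1.51 ± 0.15. Il7r had 45.5 CPM in knockout 4, against 14.2 and 16.6 CPM in controls 1 and 3, a log2 fold change of 1.56 ± 0.16. Set against each control alone, the log2 differences of the 6 genes that stood above both ranged between 0.66 for Cd44 and 2.91 for Sdc1, both against control 3. The controls differed most in Sdc1, by −0.45 log2 units for control 3 against control 1. In a summed library, more cells with a transcript and more transcript per cell cannot be told apart.

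The share of cells in which a transcript was caught was also compared after each cell was thinned to 3000 UMIs, which left out 757 shallower cells in knockout 4, 527 in control 1 and 713 in control 3. Sdc1 was seen in 5.74% of thinned knockout cells (exact Clopper-Pearson 95% interval 5.01 to 6.54%), against 1.34% (0.992 to 1.78%) in control 1 and 0.922% (0.708 to 1.18%) in control 3. Pdpn was seen in 3.28% (2.73 to 3.90%) of knockout cells, against 0.503% (0.299 to 0.795%) and 0.550% (0.388 to 0.758%) in controls 1 and 3. Both transcripts were thus rare per cell in every library, and these intervals cover counting error only.

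Adam8 was seen in 45.9% of thinned knockout cells, against 25.5% in control 1 and 22.2% in control 3. Sdc4 was seen in 30.8% of knockout cells, against 17.9% and 15.8% in controls 1 and 3, and Cd44 in 78.7%, against 69.0% and 68.9%. Il7r was seen in 7.53% of knockout cells, against 2.83% in control 1 and 3.12% in control 3. Sdc3 again differed, with 21.0% of knockout cells, against 27.1% and 22.3% in controls 1 and 3. Without thinning, the Cd44 shares were 89.8% in knockout 4, against 88.5% and 88.7% in the controls, and the Sdc4 shares were 40.4%, against 30.8% and 27.5%. The unthinned shares were 9.49%, against 3.38% and 2.23%, for Sdc1, and 4.71%, against 1.47% and 1.52%, for Pdpn. They were 61.7%, against 46.8% and 42.0%, for Adam8, 12.7%, against 6.73% and 6.96%, for Il7r, and 36.1%, against 51.9% and 45.3%, for Sdc3.

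The 76 lymphocyte-gated cells of the 3 libraries, at a median of 2701.5 UMIs, were set beside these shares as a rough guide to free RNA. Their gate also takes B and plasma cells, which can use Sdc1 themselves. Sdc1 was in 1 of them (1.32%, 0.0333 to 7.11%), close to the thinned shares of both controls. The control Sdc1 shares over all cells are therefore not read as expression, though 1 cell sets no firm level. The thinned knockout share of 5.74% also lay within the lymphocyte-gated interval, which ends at 7.11%. In Arg1-high cells at equal depth, Sdc1 was seen in 4.78% in control 1 and 5.06% in control 3. Sdc4 was in 22.4% of the lymphocyte-gated cells (13.6 to 33.4%), above both thinned control shares over all cells. Within the controls, Sdc4 was seen in 2.82% to 7.03% of S100a8-gated and 53.9% to 56.7% of Arg1-high cells at equal depth. The S100a8-gated shares lay under the lymphocyte-gated one, which is thus no common free RNA level for Sdc4. Pdpn was in 0 of 76, which allows a share of up to 3.95% (3 cells of the total; exact 95% upper limit 4.74%), and the Pdpn shares of all 3 libraries lay under that. Adam8 was in 7.89% (2.95 to 16.4%) and Sdc3 in 11.8% (5.56 to 21.3%), below all 3 libraries' shares. Cd44, in 36.8%, and Il7r, in 26.3%, are genes that lymphocytes themselves use, so these cells are no background for them.

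**Figure D2:**
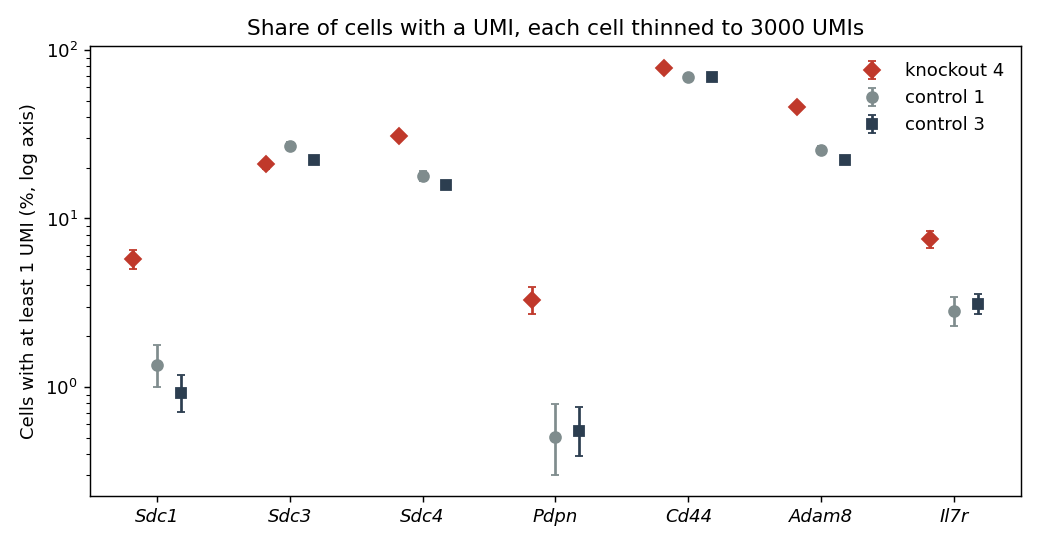
Percent of monocyte-macrophage cells (log axis) with at least 1 UMI of each gene after thinning to 3000 UMIs per cell, by library, with exact 95% binomial intervals that cover counting error only. Sdc1 was seen in 5.74% of knockout cells, against 1.34% and 0.922% of control cells, and Sdc3 in 21.0%, against 27.1% and 22.3%.

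To see which cells carried the transcripts, monocyte-macrophage cells were sorted in turn by the UMIs of marker genes, none of them among the 7. The groups were Arg1-high cells (arginase), Gpnmb-gated cells (Gpnmb, Lpl, Trem2 and Atp6v0d2, genes of lipid-handling macrophages), C1q-gated and MHC class II-gated cells, Ace-gated cells (Ace, Spn, Treml4 and Eno3, genes of patrolling monocytes), S100a8-gated cells and Vcan-gated cells (Vcan, Ly6c2, Chil3, F13a1 and Ccr2, genes of Ly6Chi monocytes). Vcan-gated cells made up 37.4% of knockout 4, against 46.0% of control 1 and 62.4% of control 3. Arg1-high cells made up 26.8% of knockout 4, against 8.23% and 2.62% of controls 1 and 3. The limits were set after the marker values were seen and without the 7 genes, and 208 knockout cells lay within 20% of the Arg1 limit, against 99 and 48 control cells. Other groups were less cleanly cut: 178 knockout cells lay that near the Ace limit, beside 192 in the group, against 216 beside 210 and 282 beside 212 in controls 1 and 3. For the Gpnmb limit it was 129 beside 122 cells in knockout 4, against 299 beside 385 and 212 beside 207 in controls 1 and 3. Knockout Gpnmb-gated cells were few (122) and shallow, with a median of 1720 UMIs.

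All 7 genes were higher in Arg1-high than in Vcan-gated cells (edgeR with library as a block). Of the 10359 genes tested, 14.8% were higher and 15.4% lower. The 7 genes were chosen by their knockout level, and knockout 4 held the largest share of Arg1-high cells. That choice may favour genes of Arg1-high cells, so the count of 7 is not read as support. Sdc4 had 674, 565 and 494 CPM in Arg1-high cells of knockout 4, control 1 and control 3, against 143, 75.2 and 64.9 CPM in their Vcan-gated cells. The log2 difference was 2.70 ± 0.16, and no Vcan-gated value came near an Arg1-high one (adjusted p = 5.34e-13). Pdpn differed by 2.80 ± 0.24 (adjusted p = 4.00e-10), with 45.6, 8.78 and 22.1 CPM in Arg1-high cells, against 7.36, 1.86 and 2.16 CPM in Vcan-gated cells of the same libraries. Within each library, Pdpn was several times higher in the Arg1-high cells.

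Il7r differed by 2.27 ± 0.19 (adjusted p = 3.32e-10), at 98.6, 39.9 and 42.8 CPM in Arg1-high cells of knockout 4, control 1 and control 3, against 21.4, 7.08 and 10.9 CPM in Vcan-gated cells. Sdc1 differed by 1.92 ± 0.21 (adjusted p = 5.00e-08), at 60.7, 14.4 and 14.7 CPM in Arg1-high cells, against 17.96, 3.77 and 3.27 CPM in Vcan-gated cells. For Sdc1 the groups overlapped across libraries, since Vcan-gated knockout cells stood above the Arg1-high cells of both controls. Adam8 differed by 1.504 ± 0.13, Sdc3 by 0.56 ± 0.11 and Cd44 by 0.30 ± 0.08, with adjusted p-values of 8.09e-10, 0.000148 and 0.00638. All 7 differences had the same direction in 3 of 3 libraries, and each stayed past the threshold under all alternatives run, with each library left out too.

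**Figure D3:**
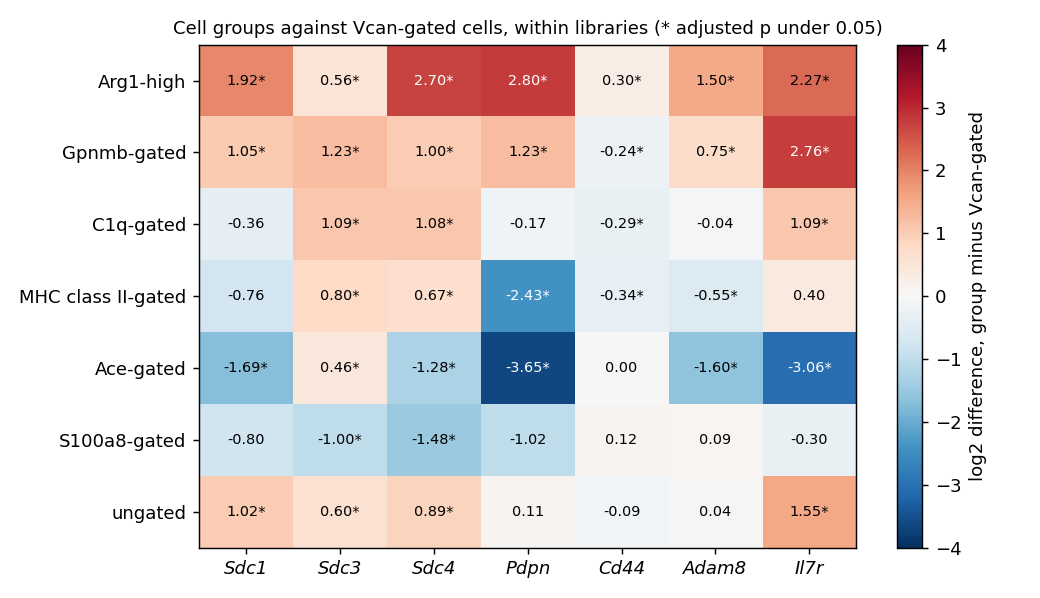
Heat map of the log2 difference of each gene (columns) between a marker-gated cell group (rows) and the Vcan-gated cells of the same libraries, from edgeR with library as a block, with a star where the adjusted p is under 0.05. The 7 genes stand above 0 in Arg1-high cells, and 5 of them stand below 0 and past the threshold in Ace-gated cells.

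In Gpnmb-gated cells 6 of the 7 genes were higher than in Vcan-gated cells and Cd44 was lower, where 15.8% of all genes were higher and 16.2% lower. Il7r led with a log2 difference of 2.76 ± 0.22 (edgeR adjusted p = 1.01e-10), at 119, 49.7 and 81.2 CPM in Gpnmb-gated cells of knockout 4, control 1 and control 3. Sdc3 followed with 1.23 ± 0.12 (adjusted p = 2.40e-09), at 194, 203 and 205 CPM. Sdc1 was higher in 2 of 3 libraries only, and without control 1 the differences of Sdc1 and Pdpn were 0.39 and 0.49 and were not called, beside 1.05 and 1.23 with it. The Cd44 difference of −0.24 was not called with any of the libraries left out (−0.28 to −0.17).

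In C1q-gated cells Sdc3 (1.09 ± 0.10), Sdc4 (1.08 ± 0.16) and Il7r (1.09 ± 0.21) were higher than in Vcan-gated cells and Cd44 was lower (−0.29 ± 0.09), where 13.3% of all genes were higher and 13% lower by the same edgeR test. Without control 3 the differences of Il7r (0.68) and Cd44 (−0.34) were not called. In MHC class II-gated cells Sdc3 and Sdc4 were higher, while Pdpn, Cd44 and Adam8 were lower, beside 5.21% and 5.07% of all genes. Without control 3 the differences of Sdc4 (0.59) and Cd44 (−0.37) were not called, nor without the knockout those of Cd44 (−0.22) and Pdpn (−1.74), while that of Adam8 was −0.35, beside −0.55 with it. Pdpn had 0 UMIs in MHC class II-gated cells of knockout 4, which puts it at least 5.65-fold lower there than in Vcan-gated cells (floor of 3 UMIs in that library).

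In Ace-gated cells 5 of the 7 genes were lower than in Vcan-gated cells and 1 was higher. Sdc3 was higher than in Vcan-gated cells (0.46 ± 0.12), Cd44 was not called (0.00 ± 0.09), and Sdc1, Sdc4, Pdpn, Adam8 and Il7r were lower, where 9.89% of all genes were higher and 8.94% lower. Adam8 had 63.8, 48.8 and 36.2 CPM in Ace-gated cells of knockout 4, control 1 and control 3, against 259, 109 and 112 CPM in Vcan-gated cells (−1.60 ± 0.19, edgeR adjusted p = 3.21e-07). Il7r had 6 UMIs in Ace-gated cells of knockout 4 and 0 in those of either control, which puts it at least 3.92-fold and 5.71-fold lower than in Vcan-gated cells of controls 1 and 3. Pdpn had 1 UMI in Ace-gated cells of knockout 4 and none in those of the controls, so its call there rests on very few molecules. Without control 1 the differences of Sdc1, Pdpn and Sdc3 (−1.71, −3.32 and 0.40) were not called, nor without the knockout those of Sdc1 (−2.46) and Pdpn, which then had no UMI in these cells. With gates set on thinned cells the differences of Sdc4 (−0.47), Sdc1 (−1.52) and Pdpn (−2.26) were not called, and with gates 1.5 times higher those of Sdc1 (−1.33) and Pdpn (−2.65) were not.

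S100a8-gated cells differed from Vcan-gated cells in 2 of the 7 genes, both syndecans and both lower, where 5.43% of all genes were lower and 5.83% higher. Sdc4 had 31.7, 43.4 and 24.7 CPM in S100a8-gated cells of knockout 4, control 1 and control 3 (−1.48 ± 0.23, edgeR adjusted p = 5.05e-05). Sdc3 had 28.0, 51.3 and 52.8 CPM in S100a8-gated cells, against 74.5, 102 and 78.3 CPM in Vcan-gated cells (−1.0002 ± 0.14, edgeR adjusted p = 1.10e-05). In cells that no gate took, 4 of the 7 genes (Sdc1, Sdc3, Sdc4 and Il7r) were higher than in Vcan-gated cells and none was lower, beside 6.89% and 6.07% of all genes. Without control 3 those of Sdc1 (0.59) and Sdc4 (0.54) were not called.

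When the groups were ordered by mean level, 15 of the 49 steps between neighbours passed the edgeR threshold and 34 did not. Sdc1, Sdc4, Pdpn and Adam8 were highest in Arg1-high cells, by log2 differences of 0.90, 1.62, 1.57 and 0.76 over the next group, each past the threshold. Cd44 was also highest there but differed from S100a8-gated cells by 0.19 (adjusted p = 0.098), and none of its 7 steps passed. Il7r and Sdc3 were highest in Gpnmb-gated cells, where Il7r stood 0.49 over Arg1-high cells (adjusted p = 0.155) and Sdc3 stood 0.14 over C1q-gated cells, neither past the threshold. Sdc3 was lowest in S100a8-gated cells, and Adam8 and Il7r in Ace-gated cells, each past the threshold. The lowest step did not pass for Sdc1 and Pdpn (lowest in Ace-gated), Sdc4 (S100a8-gated) or Cd44 (MHC class II-gated cells).

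**Figure D4:**
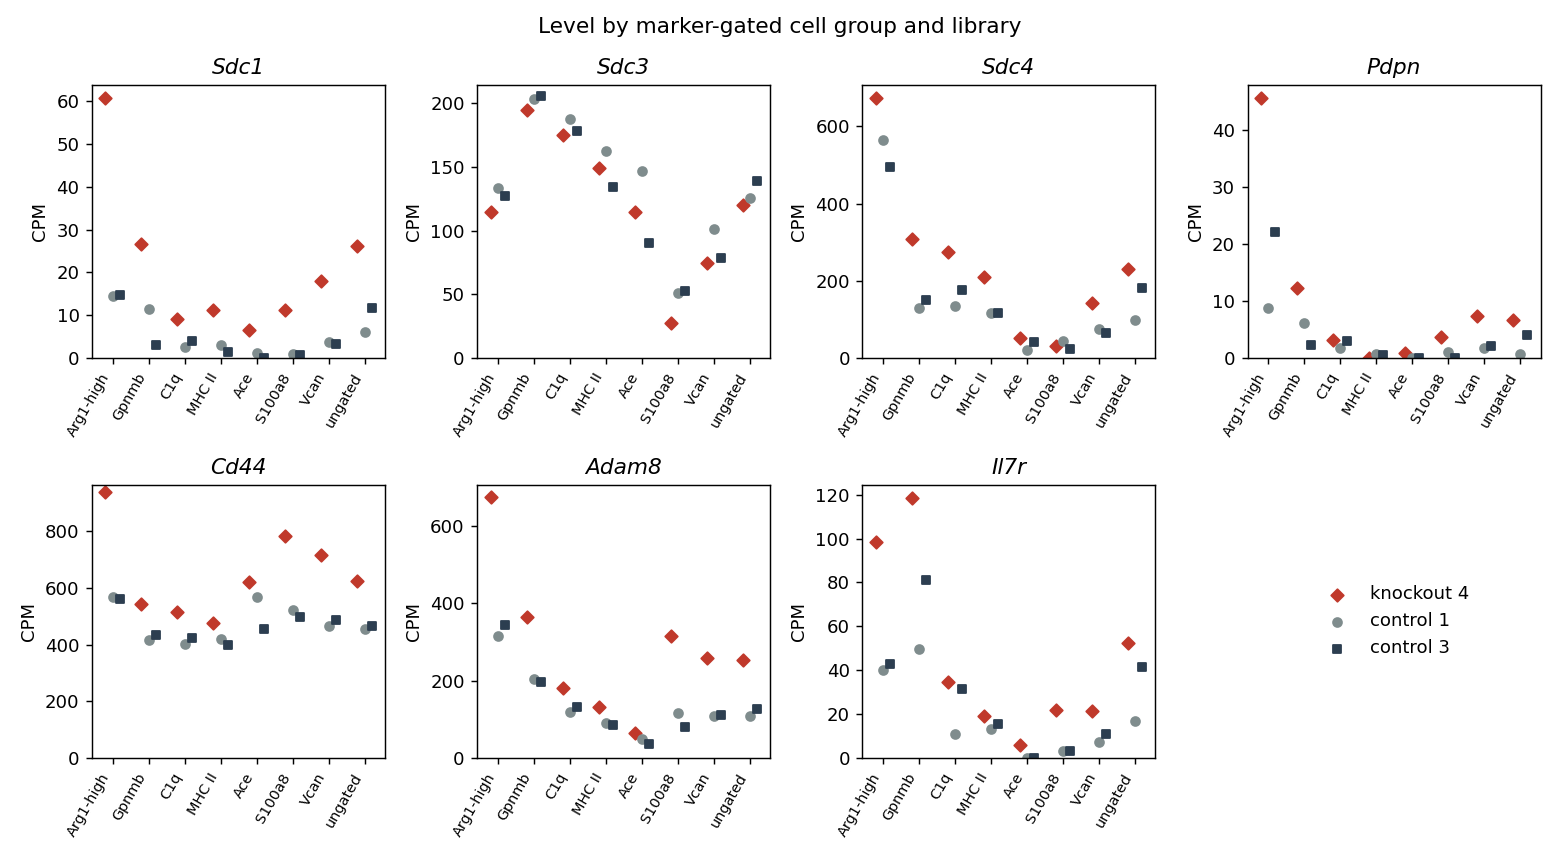
Level of each gene (CPM, linear axis from 0, a panel per gene) in the marker-gated cell groups, with 1 point per library. For Cd44 and Adam8 the knockout point lies above both control points in all 8 groups, and for Sdc3 it lies above both in none.

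Within cell groups, the knockout library mostly kept the position it had in the summed cells, counting groups with at least 3 UMIs of the gene in each library. Cd44 and Adam8 stood above both controls in 8 of 8 groups, Il7r in 7 of 7, Sdc1 in 6 of 6 and Pdpn in 4 of 4. The limit left out Pdpn in MHC class II-gated cells, with 0 UMIs in knockout 4, against 2 and 6 in controls 1 and 3. In the other groups it left out for Pdpn, Sdc1 and Il7r, knockout 4 stood above both controls. Sdc4 stood above both in 7 of 8 groups and between them in S100a8-gated cells. Sdc3 stood below both controls in 6 of 8 groups and between them in the other 2. Over all genes with that many UMIs, the share above both controls was 36.1% in Arg1-high, 43.0% in Gpnmb-gated, 37.9% in C1q-gated, 36.6% in MHC class II-gated, 35.4% in Ace-gated, 33.1% in S100a8-gated, 34.4% in Vcan-gated and 38.3% in ungated cells. The shares below both, in the same order, were 38.7%, 35.4%, 33.3%, 33.7%, 34.3%, 36.6%, 36.9% and 35.4%. The groups share their 3 libraries, so these counts are not independent, and nothing is read from them as support.

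The levels show where the knockout and control cells lay far apart. In Vcan-gated cells Adam8 had 259 CPM in knockout 4, against 109 and 112 CPM in controls 1 and 3. In S100a8-gated cells Adam8 had 315 CPM in knockout 4, against 117 and 80.2 CPM in controls 1 and 3. There Il7r had 22.0 CPM, against 3.17 and 3.34 CPM, from 59, 6 and 5 UMIs, so its control values rest on few molecules. Sdc4 lay closer together in Arg1-high cells, at 674 CPM in knockout 4, against 565 and 494 CPM in controls 1 and 3, than in Vcan-gated cells, at 143 CPM, against 75.2 and 64.9 CPM. Whether the knockout difference varies between cell groups was not tested.

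Arg1-high cells contributed 27.5% of all UMIs in knockout 4, against 8.88% in control 1 and 3.15% in control 3. They contributed 75.4% of the Pdpn UMIs in knockout 4, against 31.0% and 26.7% in controls 1 and 3. For Sdc4 they contributed 61.2%, against 38.4% and 15.6%, and for Sdc1 58.7%, against 25.4% and 12.9%. For Cd44 and Sdc3 the share from Arg1-high cells lay near that of all UMIs, at 34.0% and 30.3% in knockout 4. The other Sdc3 UMIs were spread unlike all UMIs, with 14.9% from C1q-gated and 2.56% from S100a8-gated cells in knockout 4, beside 8.50% and 9.35% of all UMIs.

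Because the group shares differed, each library's levels were also weighted to the mean group shares of the controls. The log2 ratio of knockout 4 to the control mean was then 2.15 for Sdc1, 1.61 for Pdpn, 1.07 for Adam8, 1.04 for Il7r, 0.79 for Sdc4 and 0.52 for Cd44. With each library's own shares the same ratios were 2.68, 2.67, 1.51, 1.56, 1.36 and 0.66. All 6 thus stayed above 0 and became smaller, Pdpn most. Standardised Pdpn was 8.32 CPM in knockout 4, against 2.20 and 3.24 CPM in controls 1 and 3. With the Arg1-high cells left out, the fitted log2 fold changes were between 0.54 for Cd44 and 2.08 for Sdc1 in these 6 genes, and edgeR called none of the 7, while 3 genes in all were called higher.

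**Figure D5:**
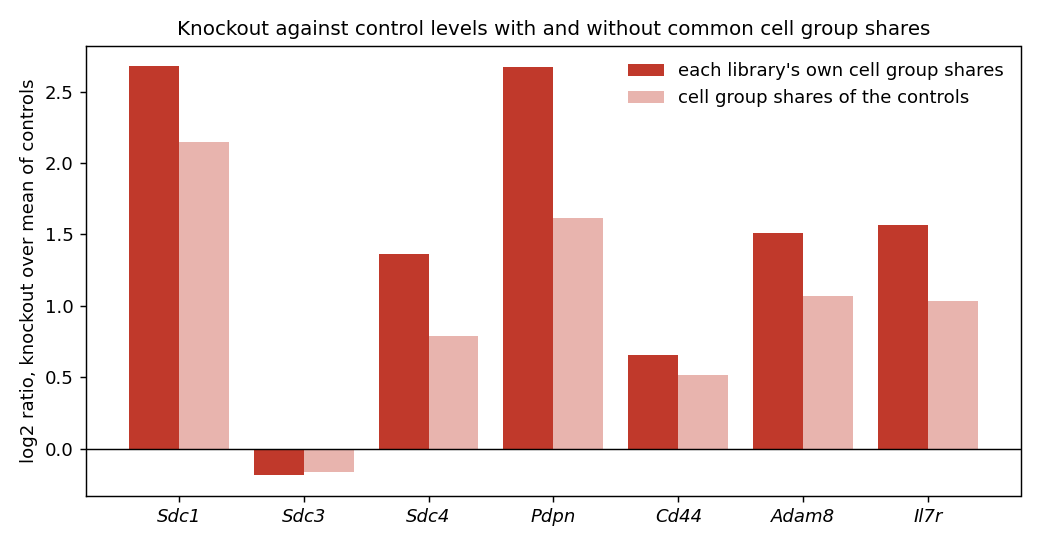
Bars of the log2 ratio of knockout 4 to the mean of the controls for each gene, with each library's own cell group shares and with all libraries weighted to the mean group shares of the controls. The Pdpn ratio was 1.61 with weighted shares and 2.67 with own shares, and the 6 genes above 0 stayed above 0.

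Cells in which one of these transcripts was caught were compared with the other cells of the library. Of the 15 pairs of genes without Sdc3, the second gene was seen more often in cells with the first in 15 pairs in knockout 4, 13 in control 1 and 15 in control 3, and of the 6 pairs with Sdc3, in 3, 3 and 5. These are counts with no test, and the cells of a library share their source. Other pairs of genes were not counted, so nothing particular to these genes is read from the counts. The cells of all groups were pooled, and the part of the group mix was not tested. At 3000 UMIs per cell, Adam8 was seen in 81.8% of knockout cells with a Pdpn UMI and in 44.7% of knockout cells without one. In control 1 the shares were 66.7% and 25.3%, and in control 3 they were 62.2% and 22.0%, from 18 and 37 cells with Pdpn. Il7r was seen in 28.1% of knockout cells with Pdpn and in 6.83% of those without, and in 22.2% against 2.73% in control 1 and 27.0% against 2.99% in control 3. Adam8 was likewise seen in 76.9% of knockout cells with Sdc1 and in 44.1% of those without. In knockout 4, Sdc3 was seen in 14.2% of cells with Sdc1 and in 21.5% of those without, and Adam8 in 40.8% of cells with Sdc3 and in 47.3% of those without. The pairs outside Sdc3 that ran the other way were in control 1, where Cd44 was seen in 68.8% of cells with Sdc1 and 69.0% of those without, and in 63.4% of cells with Il7r and 69.1% of those without.

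Over the 24 sums of library and cell group, log2(CPM + 1) of Adam8 correlated with that of Pdpn (Pearson r = 0.903), Sdc1 (0.860) and Il7r (0.847), whereas Sdc3 and Cd44 had r = −0.476. These sums share libraries and depth, so the values are descriptions. The genes with the most similar pattern to Sdc1 were Hilpda (0.923), Tpi1 (0.922) and Fam162a (0.919), and those to Pdpn were Adam8 (0.903), Plin2 (0.873) and Hilpda (0.864), among 7390 to 7391 genes at a mean of at least 10 CPM. Hilpda and Plin2 encode lipid droplet proteins and Tpi1 a glycolytic enzyme. For Sdc3 they were Pparg (0.961), Axl (0.959) and Frmd4b (0.950), the first a nuclear receptor of lipid metabolism and Axl a receptor for apoptotic cells. Sdc4 was most like Scimp (0.933), Snx3 (0.926) and Ccl24 (0.921), and Cd44 most like Egln1 (0.910), an oxygen-sensing prolyl hydroxylase, Slc16a3 (0.889), a lactate exporter, and 2810474O19Rik (0.887). Adam8 was most like Glrx (0.946), 2010111I01Rik (0.935) and Cd200r1 (0.929), and Il7r most like Mdfic (0.951), Sh3pxd2b (0.948) and Sdcbp (0.944), the last encoding syntenin, a protein that binds syndecan tails.

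The partners of the 7 genes were followed in 9 lists that together had 89 genes tested. edgeR called 0 of them. An unadjusted edgeR p under 0.05 was found for 16 of the 89, a larger share than the 8.40% of all genes (1244 of 14802). The lists were written with earlier results of these data known, so nothing is read from that share. DESeq2 called 3 higher and 1 lower, where it called 0.662% of all genes higher and 0.149% lower. By position, 34 of the 89 stood above both controls and 26 below both. Over all genes, 36.2% stood above and 36.9% below both, so the position counts are near the background. The median log2 fold change of the 89 was 0.02, beside −0.01 over all genes. Of 17 tested genes of heparan sulfate synthesis and editing, 2 stood above both controls and 6 below both, with a median of −0.06. The lowest p among them belonged to Sulf2, a sulfatase that trims heparan sulfate, at 47.9 CPM in knockout 4, against 69.8 and 65.3 CPM in controls 1 and 3 (log2 −0.50 ± 0.15, adjusted p = 0.452), followed by the chain-elongating Ext2 at 12.2, against 16.5 and 16.3 CPM.

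Of the other syndecans and glypicans only Gpc1 and Gpc2 were tested, of 7 in the list. Gpc1, a glypican, had 8.24 CPM in knockout 4, against 5.45 and 3.11 CPM in controls 1 and 3, and Gpc2 was below 1 CPM in all 3 libraries. Of 7 tested syndecan tail partners, 2 stood above both controls and 0 below both, with a median of −0.01. Sdcbp had 780 CPM in knockout 4, against 618 and 603 CPM in controls 1 and 3 (0.35 ± 0.15, edgeR adjusted p = 0.586), and Cask, a scaffold kinase that binds syndecan tails, had 12.1 CPM, against 11.7 and 15.1 CPM.

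Of 14 surface metalloproteases and TIMPs tested, 7 stood above both controls and 5 below both, with a median of 0.13. Timp1, a secreted metalloprotease inhibitor, had 13.4 CPM in knockout 4, against 4.93 and 4.23 CPM in controls 1 and 3 (1.55 ± 0.22, edgeR adjusted p = 0.077). Timp2, of the same family, had 22.8 CPM in knockout 4, against 43.1 and 49.1 CPM in controls 1 and 3 (−1.02 ± 0.17, edgeR adjusted p = 0.113). DESeq2 called both, Timp1 higher (adjusted p = 0.0031) and Timp2 lower (0.00724), and also called Mmp19 and Pecam1 higher (0.0192 and 0.0279). Of 13 integrins, 6 stood above both controls and 5 below both (median −0.12), and of 11 selectin and immunoglobulin adhesion genes, 4 stood above and 4 below (median −0.04). Itga5, the fibronectin receptor chain, had 76.3 CPM in knockout 4, against 54.2 and 63.3 CPM in controls 1 and 3, and Itgb8 was below 1 CPM in every library. Pecam1 had 17.1 CPM in knockout 4, against 8.39 and 5.74 CPM, and Icam2 had 9.59 CPM, against 18.8 and 14.3 CPM.

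Of 9 tested hyaluronan and CD44 partners, 4 stood above both controls and 0 below both, with a median of 0.21. Spp1, which encodes osteopontin, a CD44 ligand, had 1131 CPM in knockout 4, against 663 and 382 CPM in controls 1 and 3 (1.11 ± 0.29, edgeR adjusted p = 0.355), and the hyaluronidase Hyal1 had 4.17 CPM, against 2.69 and 3.01 CPM. Of 5 tested podoplanin partners, 4 stood above both controls and 1 below both, with a median of 0.14. Cd9, a tetraspanin, had 467 CPM in knockout 4, against 237 and 117 CPM in controls 1 and 3 (1.40 ± 0.35, edgeR adjusted p = 0.326), and the galectin Lgals8 had 67.1 CPM, against 44.2 and 63.8 CPM. Of 11 genes of interleukin-7 and TSLP receptor signalling, 4 stood above and 4 below both controls, with a median of 0.04. The kinase Jak2 had 54.8 CPM in knockout 4, against 31.6 and 32.2 CPM in controls 1 and 3 (0.78 ± 0.14, edgeR adjusted p = 0.147), and the STAT5 target Cish had 11.6 CPM, against 8.74 and 5.68 CPM.

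Markers of other cells were summed over the monocyte-macrophage cells, from which gated lymphocytes and neutrophils had been taken out, so low sums of their markers follow from the gate. In these sums the 8 T cell markers reached 0.674 CPM in knockout 4, against 1.58 and 0.568 CPM in controls 1 and 3. The 7 B and plasma cell markers reached 5.02 CPM, against 11.4 and 8.77 CPM, mostly Cd79b (4.82, 9.17 and 7.86 CPM). The 7 NK cell and ILC markers reached 5.02 CPM, against 5.61 and 5.04 CPM, mostly Rora (3.91, 4.41 and 4.25 CPM). The 8 neutrophil markers reached 119 CPM, against 87.6 and 108 CPM. Nearly all of this was Mmp8 (116 CPM, against 85.4 and 107 CPM), while Camp and Ngp had 0 UMIs in every library. Over all passing cells, with the gated cells kept, the T cell markers summed to 7.06 CPM in knockout 4, with 0 of 8 at 0, against 8.27 and 4.85 CPM in controls 1 and 3. The B and plasma cell markers, of cells that use Sdc1, then summed to 11.8 CPM in knockout 4, against 27.5 and 27.6 CPM, the NK cell and ILC markers to 6.26 CPM, against 12.5 and 7.63 CPM, and the neutrophil markers to 121 CPM, against 87.6 and 110 CPM. With these cells kept, the log2 fold change was 1.53 for Il7r and 2.68 for Sdc1, beside 1.56 and 2.68 without them.

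The sums that follow are again over monocyte-macrophage cells. The 8 fibroblast and mesothelial markers, of cell types that use Pdpn, summed to 0.708 CPM in knockout 4, with 5 of the 8 at 0 (Col1a1, Col1a2, Lrat, Msln and Upk3b), against 0.968 and 6.30 CPM in controls 1 and 3. The 6 endothelial markers summed to 5.53 CPM in knockout 4, against 5.55 and 5.07 CPM in the controls. The 6 platelet markers moved with the knockout, at 377 CPM, against 166 and 131 CPM in the controls, nearly all of it Pf4 (347 CPM, against 162 and 127 CPM) and Ppbp (29.1 CPM, against 2.96 and 2.95 CPM), while Itga2b, Gp9, Gp1bb and Treml1 were each below 1 CPM in every library. The 7 hepatocyte markers summed to 31.4 CPM in knockout 4, against 25.9 and 72.1 CPM, and the 5 Kupffer cell markers to 3.78, 5.61 and 3.69 CPM in knockout 4, control 1 and control 3. The 6 dendritic cell markers reached 1.28, 2.32 and 5.39 CPM, the 5 cholangiocyte markers 0.573, 0.968 and 0.901 CPM, and the 5 basophil, mast cell and eosinophil markers 0 CPM in all 3. The part of platelet material, depth and Arg1-high share in the knockout values was not tested beyond the weighting above.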

How the data were processed

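Raw UMI counts for each barcode were deposited by the authors; Cell Ranger 3.0.2 and GRCm38 are named in the submitters' processing notes. They hold 5152 barcodes for knockout 4, 4814 for control 1 and 8109 for control 3, beside 5229, 4860 and 8149 cells in the design text, with 30302932, 40092348 and 72867668 UMIs. The quality filter kept barcodes with 500 or more genes and no more than 10% mitochondrial UMIs; doublets were not called, and cells over 2 times their library's median UMIs (2.45%, 8.31% and 11.1%) were left out as an alternative. Cells gated as lymphocytes (16, 29 and 31) or neutrophils (7, 2 and 5) were left out of the sums.

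Gates are UMIs per 10000 of a cell, in this order: Arg1 10, Gpnmb set 30, C1q 20, MHC class II 60, Ace set 8, S100a8 and S100a9 20, Vcan set 20. Sums per library, or per library and group, were fitted with edgeR 4.0.16 (TMM, filterByExpr, two-sided quasi-likelihood test, Benjamini-Hochberg over all genes, threshold 0.05) in R 4.3.3. The knockout fit had 5.88 prior degrees of freedom and a biological coefficient of variation of 15.6%; the cell group fit, with library as a block, had 14 residual degrees of freedom. Alternatives were DESeq2 1.42.0, other scalings, filters, gates and depths, and leaving out each library. The method was tested on simulated data drawn with its own fitted spread, so how the lone knockout library varies was not checked. Genes of the lists were named if called by edgeR, otherwise the 2 lowest p per list (Mmp19, called by DESeq2 alone, was named after its values were seen); similar genes are the top 3 by Pearson r. The 7 genes, the lists and the gates were chosen with earlier results of these data known. CPM compares libraries, not genes; Sdc3, Cd44 and Adam8 overlap other annotated genes, and no source used here says whether counting used strand.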

Additional observations from a re-analysis of the deposited data

Results flagged for a closer look

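Barcodes left out for over 10% mitochondrial UMIs, 223 in knockout 4, 374 in control 1 and 214 in control 3, were not used in any comparison and still held some of these transcripts above the control level. CPM here was also taken without the TMM factors. Cd44 had 1493 CPM in the left-out barcodes of knockout 4, against 823 and 820.4 CPM in those of controls 1 and 3. Adam8 had 682 CPM in knockout 4, against 300 and 259 CPM. Sdc4 had 255 CPM in knockout 4, against 115 and 130 CPM. Il7r had 43.9 CPM in knockout 4, against 34.7 and 17.3 CPM in controls 1 and 3, from 11, 16 and 4 UMIs. Sdc3, at 156 CPM in knockout 4, lay between controls 1 and 3, at 174 and 108 CPM. Sdc1 had 12, 2 and 2 UMIs and Pdpn 5, 2 and 0 UMIs in knockout 4, control 1 and control 3. The share of all genes above both controls in these barcodes was not computed.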

How the results depend on the processing

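No paired analysis was possible because the controls are numbered 1 and 3 and the knockout 4, so the groups share no number. Genes called higher in the knockout numbered 24 and became 98 with DESeq2, 291 without a low-count filter, 5 after thinning, 3 without Arg1-high cells and 9 without high-UMI cells. Genes called lower numbered 1 and became 22 with DESeq2, 161 without the filter, 5 with all cells that passed and 0 without high-UMI cells. Genes of the lists called higher numbered 0 and became 3 with DESeq2 and 10 without the filter, and those called lower 0, 1 and 3. The directions of all 7 genes in the knockout held under every alternative run. Calls were lost for Pdpn, Adam8 and Il7r after thinning, at log2 values of 2.76, 1.53 and 1.57 beside 2.65, 1.51 and 1.56, for Adam8 and Il7r (1.542 and 1.503) without high-UMI cells and for all 4 without Arg1-high cells, and the cause was not tested. Calls were gained for Sdc4 with DESeq2, with all cells that passed (edgeR adjusted p = 0.048) and without the filter, and for Cd44 without the filter (0.012). With 1 control left out there is no test.

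Of the 49 tests of a gene in a cell group, 23 were higher and 12 lower; leaving out each library gave 19 to 23 higher and 7 to 9 lower, 7 of them lower without the knockout. A sign turned in 17 values, and of these only Cd44 in Gpnmb-gated cells, 0.014 with gates 1.5 times higher, had been called. Cd44 in Ace-gated cells became −0.079 without the filter, −0.047 with higher gates and −7.0e-05 without high-UMI cells, and ranged between −0.149 and 0.113 with each library left out. Adam8 in ungated cells became −0.032 without the filter and −0.021 with gates on thinned cells, and ranged between −0.032 and 0.073 with each library left out. In C1q-gated cells Pdpn became 0.339 and Adam8 0.084 with higher gates, and 0.0048 and 0.0045 without high-UMI cells. With each library left out, the ranges in C1q-gated cells were −0.708 to 0.289 for Pdpn, −0.195 to 0.176 for Adam8 and −0.787 to 0.033 for Sdc1. Those of Pdpn in ungated cells were −0.483 to 0.406, and of Adam8 in S100a8-gated cells −0.151 to 0.233. Depth limits Sdc1 and Pdpn most, with 100 to 800 UMIs per library.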
